A study of Mus musculus with 4 samples.

Results

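Slit proteins and their Roundabout (Robo) receptors were followed through the cell types of the embryonic mouse ventricle in the presence and absence of endothelial *Ets1*. The genes were *Slit2* and *Slit3* (ligands) and *Robo1*, *Robo2* and *Robo4* (receptors), taken by symbol, 5 of the 32285 genes in the count matrices. Their unique molecular identifiers (UMIs, 1 per captured RNA molecule) were summed in each library over the cells of 8 classes, which were gated by marker genes that did not include these 5. Levels are in CPM, for which every sum over a class and library was brought to one common total of UMIs.

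Controls were Tie2Cre;*Ets1* fl/+ embryos, which carry Cre and 1 floxed allele, and *Ets1* endothelial knockout (eKO) embryos were Tie2Cre;*Ets1* fl/fl, all at E14.5 on a C57BL/6 background. There were 2 libraries in each group, and each library pooled 3 ventricles. Tie2Cre acts in the endothelial and blood lineages and in cells that derive from endocardium, such as cushion mesenchyme, so that the deletion was not limited to 1 vascular bed. The labels place all 4 libraries in 1 batch, give no sex for the embryos and do not name the litters, so the p-values measure the spread between these libraries.

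Slits are large secreted proteins that bind the ectodomain of Robo receptors together with heparan sulfate, and they are best known for repelling growing axons at the midline of the nervous system. In the heart they take part in the formation of the heart tube, valves and septa. *Robo4* is a receptor largely limited to endothelial cells, where it is known for stabilising vessels, whereas *Robo1* and *Robo2* are expressed more widely. *Ets1* encodes a transcription factor of the ETS family, whose members bind DNA at the core sequence GGAA.

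The libraries held 12641 and 7949 barcodes in controls against 10010 and 14951 in the eKO libraries. After filters and doublet removal 10309, 6814, 8556 and 12316 cells were kept. A median of 9027 and 8762 UMIs was counted per kept cell in controls against 8462.5 and 5416.5 in the eKO libraries, the last library being the shallowest. Pairs of libraries shared 15 to 33 barcodes. By Y-linked and *Xist* UMIs, control replicate 1 held 7549 male and 0 female cells, control replicate 2 and *Ets1* eKO replicate 1 were mixed (53.2% and 57.4% female), and *Ets1* eKO replicate 2 was 99.8% female. Sex and genotype therefore partly coincided, and results are also given within the mixed libraries.

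The gates held 4349 mural endocardial, 1432 coronary endothelial, 582 valve endocardial, 2947 trabecular and 5497 compact cardiomyocyte, 7452 mesenchymal, 626 epicardial and 765 immune cells. Markers on which the cells were gated, whose levels the gates therefore fix, had mean levels of 814 CPM for *Npr3* in mural endocardium, 7315 CPM for *Fabp4* in coronary endothelium and 332 CPM for *Prox1* in valve endocardium. *Nppa* reached 10685 CPM in trabecular cells and *Upk3b* reached 986 CPM in epicardium. Immune cells served as the class that should lack endothelial and mesenchymal genes, and their values give the background of RNA from other cells.

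*Ets1* itself was examined first. In mural endocardium it was at 284 and 261.5 CPM in controls against 123 and 98.4 CPM in the eKO libraries, a log2 fold change of −1.25 ± 0.14 (standard error, SE; edgeR adjusted p = 0.00104). It also fell by 1.104 ± 0.18 on the log2 scale in coronary endothelium (adjusted p = 0.0156) and by 1.32 ± 0.17 in valve endocardium (adjusted p = 0.000286, edgeR). In all 3 classes both eKO libraries lay below both controls, in the direction of the labels. The remaining *Ets1* UMIs can include transcripts of the floxed allele outside the deleted part, which a 3′ count does not separate. In mesenchyme *Ets1* was at 98.9 and 83.9 CPM in controls against 61.7 and 59.8 CPM in the eKO libraries, and this difference did not pass the threshold (log2 fold change −0.50 ± 0.13, edgeR adjusted p = 0.279).

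On the mouse assembly GRCm38 (GENCODE M21), *Slit2* lies on the plus strand at chr5:47983138-48307733, *Slit3* on the plus strand at chr11:35121224-35708507 and *Robo1* on the plus strand at chr16:72308306-73046095. *Robo2* lies on the same chromosome on the minus strand at chr16:73891839-74411825, and *Robo4* on the plus strand at chr9:37401897-37415115. *Robo4* spans 13219 bases, whereas in this annotation the other 4 genes span 324596 bases (*Slit2*) to 737790 bases (*Robo1*). No other counted gene overlaps *Robo1*, *Robo2* or *Robo4*, but *Slit2* overlaps 2 counted genes, *4930518C09Rik* and *Gm20475*, and *Slit3* overlaps *Gm12122*. Of the genes within *Slit2* 1 is on its strand, as is *Gm12122* with *Slit3*, and reads from these shared stretches could not be told apart by strand. RefSeq gives *Robo2* 3 starts, and 2 of them (chr16:75447293 and chr16:75092770) lie upstream of this GENCODE gene, so the span and the overlaps hold for GENCODE only.

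The 250 bases before the RefSeq start are shown for *Robo4*, *Robo1* and *Slit2*, the 3 genes with a lower level past the threshold in at least 1 endothelial class. They come from RefSeq on GRCm38.p6, read on the plus strand at chr9:37401722-37401971, chr16:72662899-72663148 and chr5:47982905-47983154, and capitals mark the ETS core GGAA or its reverse complement TTCC.
Robo4: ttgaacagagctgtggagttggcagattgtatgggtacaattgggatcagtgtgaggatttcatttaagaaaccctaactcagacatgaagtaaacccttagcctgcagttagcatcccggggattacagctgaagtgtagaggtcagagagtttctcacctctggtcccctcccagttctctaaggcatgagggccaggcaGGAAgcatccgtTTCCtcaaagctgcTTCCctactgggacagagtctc
Robo1: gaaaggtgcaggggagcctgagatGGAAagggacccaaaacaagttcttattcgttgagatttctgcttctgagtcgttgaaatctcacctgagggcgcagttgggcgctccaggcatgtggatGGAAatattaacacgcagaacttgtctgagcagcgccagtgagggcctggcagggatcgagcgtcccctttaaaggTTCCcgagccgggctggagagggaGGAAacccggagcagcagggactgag
Slit2: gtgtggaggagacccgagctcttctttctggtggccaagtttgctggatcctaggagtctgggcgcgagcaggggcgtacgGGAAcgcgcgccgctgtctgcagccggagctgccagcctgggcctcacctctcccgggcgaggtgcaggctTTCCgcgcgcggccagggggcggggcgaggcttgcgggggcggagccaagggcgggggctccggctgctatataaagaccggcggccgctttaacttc
The core was found 3 times in the *Robo4* window, 4 times in that of *Robo1* and 2 times in that of *Slit2*. The *Slit3* window held 0, and the windows at the 3 RefSeq starts of *Robo2* held 3, 1 and 4. Over all 32851 RefSeq promoter windows of this length 93.4% held the core, with a median of 3 matches, so its presence does not set these genes apart, and a match is a description of the letters and not a binding site. The longer form CAGGAA, which contains the core, was in 25.7% of windows and once in that of *Robo4*, and CCGGAA was in 12.0% of windows and in none of the 7 windows of these genes. The *Robo1* window lies wholly inside the GENCODE gene, at an internal start. Those of *Robo4*, *Slit2* and *Slit3* begin before the GENCODE gene and end inside it, and the 3 cores of *Robo4* lie in the part inside.

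The ligands were highest in different classes. *Slit2* was highest in trabecular cardiomyocytes at 1451 ± 391 CPM (mean ± SD, n = 4 libraries), followed by mesenchyme at 703 ± 82.2, valve endocardium at 334 ± 39.0, epicardium at 282 ± 27.0 and mural endocardium at 240.1 ± 70.3. Coronary endothelium held 74.6 ± 17.7, compact cardiomyocytes 16.3 ± 4.4 and immune cells 11.1 ± 5.9. Over all 4 libraries the ranges overlapped between valve endocardium and epicardium, between epicardium and mural endocardium, and between compact cardiomyocytes and immune cells. The order of mural endocardium and epicardium differed by genotype, since they overlapped in controls (281 and 318 against 245 and 302 CPM) and mural endocardium was the lower in *Ets1* eKO (182 and 179 against 278 and 302 CPM). Compact cardiomyocytes held 13.4 CPM in both controls beside 17.5 and 3.2 CPM in immune cells, and 15.9 and 22.7 CPM in *Ets1* eKO beside 11.4 and 12.1 CPM, so their level was near the background. For *Slit3*, trabecular cells held 5.29 to 6.60 times the compact level within the 4 libraries.

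*Slit3* followed another order. It reached 981 ± 159 CPM in epicardium (n = 4), the outer mesothelial layer of the heart, and 122 ± 55.3 in mesenchyme, and the libraries of these classes did not overlap. Trabecular cardiomyocytes (54.1 ± 13.1 CPM) and mural endocardium (51.1 ± 15.5) overlapped over all 4 libraries, with trabecular cells higher in controls (58.1 and 68.0 against 53.2 and 28.6 CPM) and mural cells higher in *Ets1* eKO (62.5 and 60.0 against 53.8 and 36.6 CPM). Valve endocardium, compact cardiomyocytes and coronary endothelium held 11.03 ± 9.7, 9.4 ± 3.1 and 3.9 ± 4.9 CPM beside 2.5 ± 1.9 in immune cells. The highest level of *Slit3* was thus in the outer layer of the ventricle wall and that of *Slit2* in the trabeculae on its inner side.

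*Robo1* was measured in every gated class above the immune level of 4.7 ± 2.6 CPM. It was highest in mesenchyme at 468 ± 146 CPM (n = 4), and lower in epicardium (178 ± 45.0), coronary endothelium (121 ± 54.6), compact cardiomyocytes (100.5 ± 14.1), valve endocardium (100.4 ± 9.8), trabecular cardiomyocytes (70.7 ± 11.47) and mural endocardium (43.4 ± 17.7). Over all 4 libraries neighbouring classes in this order overlapped, with 3 exceptions: mesenchyme stood above epicardium, valve endocardium above trabecular cardiomyocytes, and mural endocardium above immune cells. The place of coronary endothelium differed by genotype, since in controls it (144 and 188 CPM) stood above compact (88.0 and 119) and valve cells (109.8 and 107), and in *Ets1* eKO (81.9 and 71.5) it stood below both (103 and 91.6, and 95.6 and 89.0). Unlike the ligands, *Robo1* was lower in trabecular than in compact cells, at 0.612 to 0.786 times the compact level in the 4 libraries.

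*Robo2* was nearly limited to mesenchyme (675 ± 176 CPM, n = 4) and epicardium (198 ± 46.5). The endothelial classes held 6.9 ± 2.2 to 12.1 ± 4.9 CPM, and both cardiomyocyte classes (3.0 ± 0.72 and 2.7 ± 1.4) overlapped with the immune level of 3.0 ± 0.64. *Robo4* showed the reverse distribution, with 48.3 ± 7.9 CPM in coronary endothelium, 11.1 ± 6.7 in mural endocardium and 3.5 ± 1.6 in valve endocardium, whose libraries overlapped with those of mural endocardium over all 4, though within each genotype mural endocardium was the higher (17.5 and 16.2 against 5.6 and 1.7 CPM in controls, 4.2 and 6.7 against 3.2 and 3.7 CPM in eKO libraries). The valve values rested on only 8 and 2 UMIs in controls and 3 and 3 in eKO libraries, too few to fix this order. Outside the endothelium *Robo4* stayed at or below 1.0 ± 0.23 CPM, and 0 UMIs were counted among 4070731 epicardial UMIs, which allows up to 0.737 CPM.

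**Figure D1:**
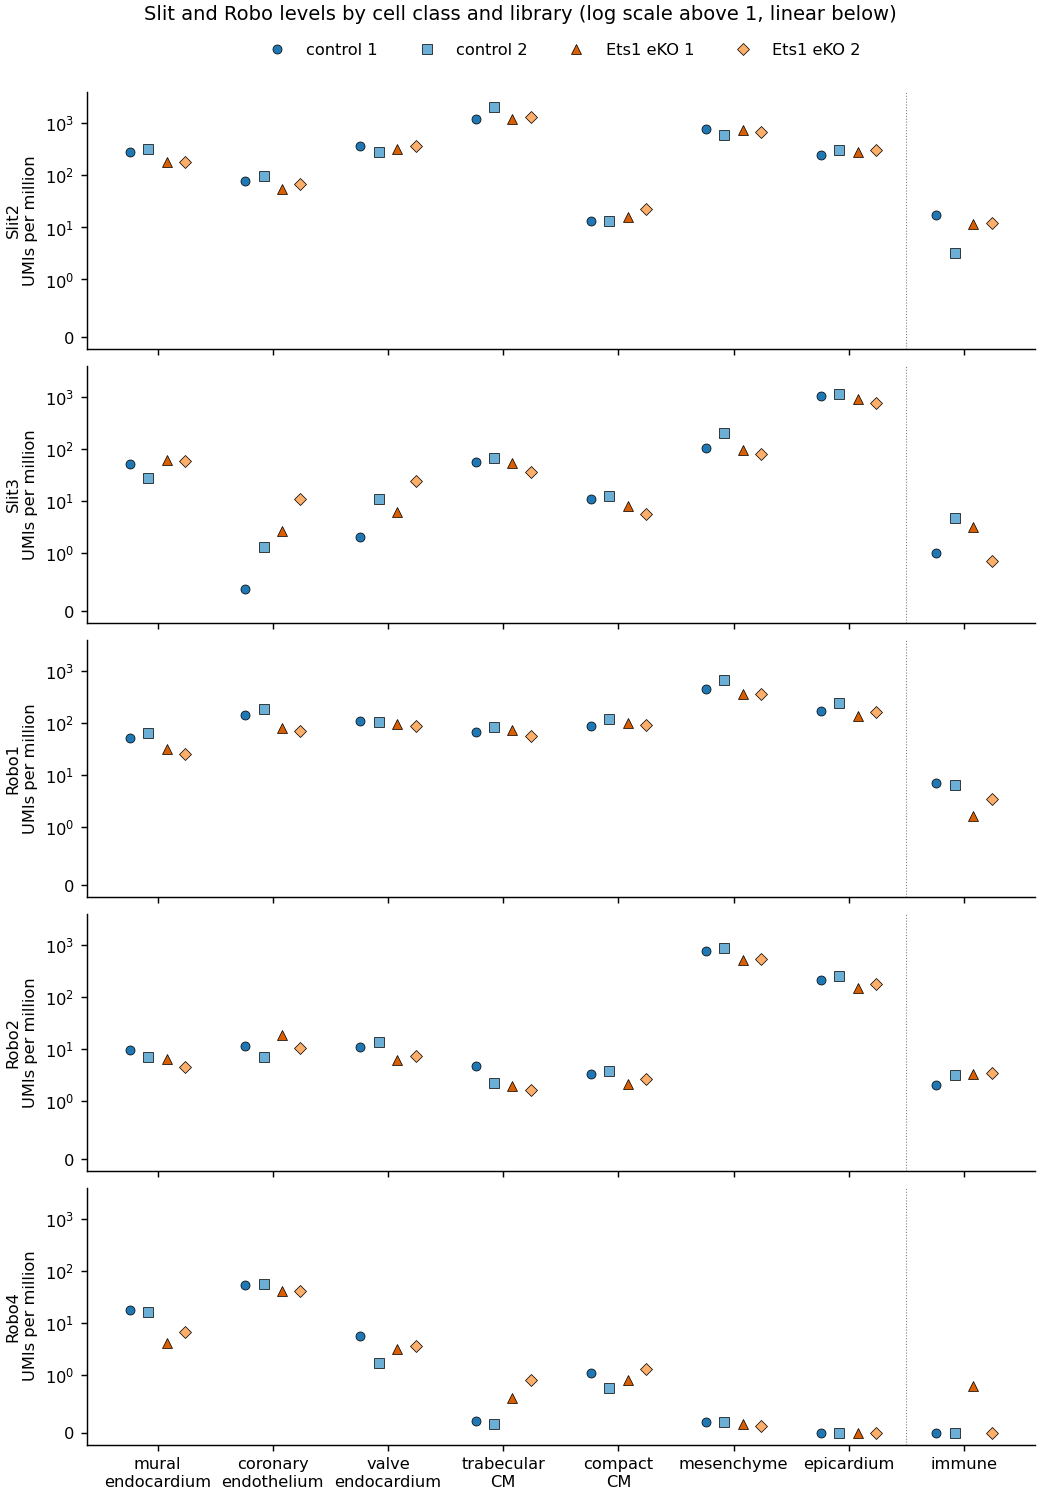
Level of each gene by cell class in each of the 4 libraries, in CPM of the class (log scale above 1, linear below; CM, cardiomyocyte); immune cells, right of the dotted line, show the background. *Slit2* peaks in trabecular cells (1451 CPM on average), *Slit3* in epicardium (981), *Robo1* and *Robo2* in mesenchyme (468 and 675) and *Robo4* in coronary endothelium (48.3).

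The first comparison asked whether the loss of *Ets1* was accompanied by a change of these genes in mural endocardium, the endocardium that lines the chamber wall. In the clustering of the paper, control and eKO mural cells fell mostly in different subclusters. The class was taken here as a whole. Of the 5 members, 3 were lower in *Ets1* eKO and none was higher at an edgeR adjusted p of 0.05 or less. All 5 were tested, an unadjusted p under 0.05 was found for 4, and DESeq2 also called 3. Among all 12974 genes tested in this class edgeR called 415 (3.20%), of which 216 were lower (1.66%), DESeq2 called 405 (3.12%), and 2793 had an unadjusted edgeR p under 0.05 (21.5%). With total UMI counts in place of TMM scaling 196 genes were called higher and 379 lower, against 199 and 216 with it.

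*Robo4*, the endothelial receptor, changed most among the 3 in mural endocardium. It was at 17.5 and 16.2 CPM in controls against 4.2 and 6.7 CPM in the eKO libraries, from 142, 100, 31 and 57 UMIs. Both eKO libraries were far below both controls. The fold change was 2.95-fold lower (log2 fold change −1.56 ± 0.25, edgeR adjusted p = 0.00788), and the adjusted p stayed at 0.013 or lower under each of the 14 alternatives run for it.

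*Robo1*, a receptor for both ligands, was at 51.4 and 64.3 CPM in control mural endocardium and 31.8 and 26.0 CPM in *Ets1* eKO. The groups did not overlap, and the level was 1.93-fold lower (log2 fold change −0.95 ± 0.17, edgeR adjusted p = 0.0138). The call was lost without control replicate 2, where the log2 fold change was −0.74 with an adjusted p of 0.066.

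*Slit2* in mural endocardium fell from 281 and 318 CPM in controls to 182 and 179 CPM in *Ets1* eKO. The eKO libraries lay close together and below both controls, 1.60-fold lower (log2 fold change −0.68 ± 0.13, edgeR adjusted p = 0.0229). The adjusted p was 0.19 without control replicate 2 (log2 fold change −0.54), and 0.065 after the trend with gene length was removed (−0.50).

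The other ligand and *Robo2* did not pass the threshold in this class. *Slit3* was at 53.2 and 28.6 CPM in controls against 62.5 and 60.0 CPM in the eKO libraries, with the controls differing more from each other than the eKO libraries did (log2 fold change 0.63 ± 0.22, edgeR adjusted p = 0.140). Without control replicate 1 its log2 fold change was 1.12 with an adjusted p of 0.0054, and without control replicate 2 it was 0.30 with an adjusted p of 0.524. Of 14 alternatives 4 passed the threshold, the others being no filter on low counts (adjusted p = 0.00308), the replicate block (0.0101) and sex of the cells as a term (0.0335). *Robo2* was low in all libraries, at 9.8 and 6.9 CPM in controls against 6.4 and 4.5 CPM in the eKO libraries (log2 fold change −0.59 ± 0.28, edgeR adjusted p = 0.256), and the UMIs of this gene numbered 79, 43, 47 and 38. With 1 library left out the value ran from −0.85 (*Ets1* eKO replicate 1) to −0.35 (control replicate 1), none past the threshold. Its direction turned with sex of the cells as a term (0.24, edgeR adjusted p = 0.726), and in the 2 libraries with cells of both sexes, control replicate 2 and *Ets1* eKO replicate 1, it was at 5.3 and 11.4 CPM in male cells and at 5.1 and 3.2 CPM in female cells.

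**Figure D2:**
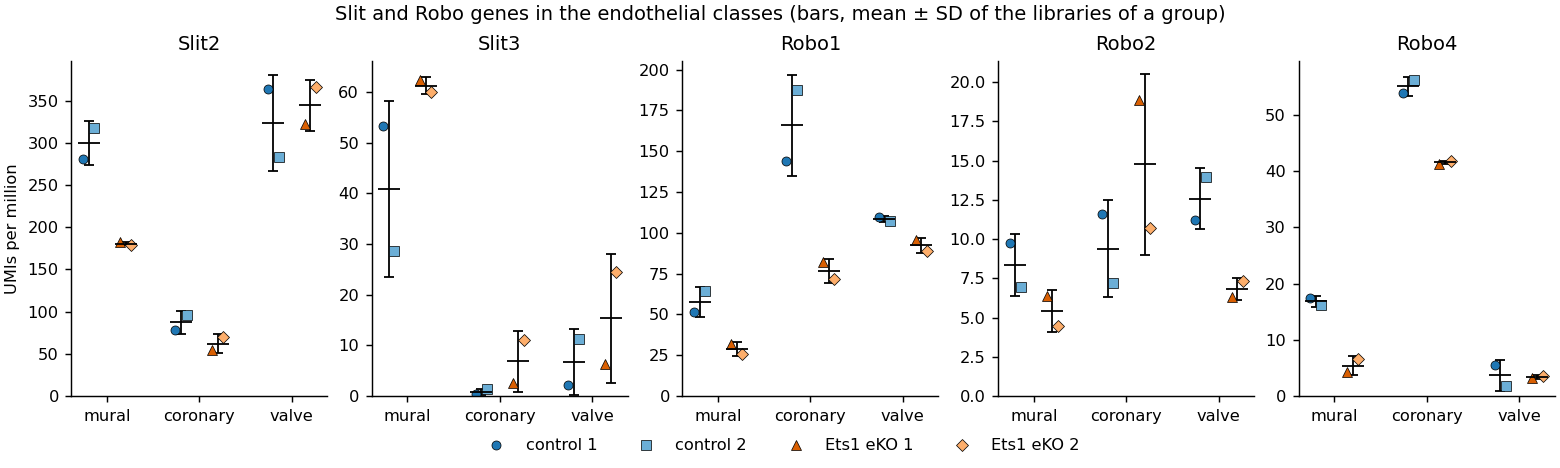
Level of the 5 genes in mural endocardium, coronary endothelium and valve endocardium, in CPM on linear axes that start at 0; points are libraries and bars are the mean ± SD of the 2 libraries of a group. In mural endocardium *Slit2*, *Robo1*, *Robo2* and *Robo4* are lower in both *Ets1* eKO libraries, and all but *Robo2* passed the threshold. In coronary endothelium *Slit2*, *Robo1* and *Robo4* are lower in both, and only *Robo1* passed it (76.7 against 166 CPM on average). In valve endocardium *Slit2* and *Robo4* overlap between groups. Groups did not overlap for 52.8% of all genes tested in mural and 43.9% in coronary cells.

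In coronary endothelium 1 of the 5 members was called, and it was lower. Over the 11269 genes tested there 86 were called (0.763%), 30 of them lower (0.266%), and DESeq2 called 68 (0.603%), 1 member among them. An unadjusted p under 0.05 was found for 3 members and for 1321 of all genes (11.7%). With total UMI counts 54 genes were called higher and 54 lower, against 56 and 30 with TMM scaling.

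*Robo1* was the gene called. It was at 144 and 188 CPM in control coronary endothelium and 81.9 and 71.5 CPM in *Ets1* eKO, from 745, 573, 309 and 308 UMIs. Both eKO libraries were below both controls by a wide margin, and the level was 2.05-fold lower (log2 fold change −1.03 ± 0.17, edgeR adjusted p = 0.0156). Without control replicate 2 the log2 fold change was −0.83 and the adjusted p was 0.052. In these cells the coronary list itself summed to 8110 and 6852 CPM in controls against 8685 and 9990 CPM in the eKO libraries, and the compact list given below for *Slit3* was also higher. Lower in both eKO libraries were the immune list (24.5 and 20.3 against 13.0 and 13.5 CPM), the cushion list (13.7 and 21.3 against 9.8 and 12.8 CPM) and the *Tcf21*-type list (4.2 and 3.6 against 2.7 and 3.0 CPM), and the part of these shifts in the *Robo1* values was not tested.

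*Slit2* was at 77.9 and 96.6 CPM in control coronary endothelium and 54.1 and 69.9 CPM in *Ets1* eKO. Both eKO libraries were below both controls, but the gap between *Ets1* eKO replicate 2 and control replicate 1 was small beside the spread within each group, and the change did not pass the threshold (log2 fold change −0.41 ± 0.18, edgeR adjusted p = 0.403, unadjusted p = 0.0431). It passed when *Ets1* eKO replicate 2 was left out (log2 fold change −0.62, adjusted p = 0.020) and with sex of the cells as a term (−0.71, adjusted p = 0.031), but was −0.21 (adjusted p = 0.485) with *Ets1* eKO replicate 1 left out and −0.25 (adjusted p = 0.988) without control replicate 2. Summed *Slit2* in immune cells of the same libraries was 17.5 and 3.2 CPM in controls against 11.4 and 12.1 CPM in the eKO libraries. Summed over 10 cardiomyocyte markers, coronary endothelium held 838 and 556 CPM in controls against 755 and 981 CPM in the eKO libraries, and the part of these transcripts in the *Slit2* values was not tested.

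*Robo4* in coronary endothelium was at 53.9 and 56.3 CPM in controls against 41.4 and 41.8 CPM in the eKO libraries. The libraries agreed closely within each group and the groups did not overlap, yet the change was small, 1.26-fold lower, and did not pass the threshold (log2 fold change −0.33 ± 0.15, edgeR adjusted p = 0.432). *Robo2* was at 11.6 and 7.2 CPM in controls against 18.8 and 10.7 CPM in the eKO libraries, and the groups overlapped (log2 fold change 0.65 ± 0.31, edgeR adjusted p = 0.436). Its sign depended on doublets, since without their removal the log2 fold change was −0.12, and without *Ets1* eKO replicate 2 it was 1.00 and passed the threshold (edgeR adjusted p = 0.0371). It was 0.22 (adjusted p = 0.752) when *Ets1* eKO replicate 1 was left out, 0.41 (adjusted p = 0.927) without control replicate 2 and 1.09 (adjusted p = 0.167) without control replicate 1.

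*Slit3* in coronary endothelium rested on few molecules. The libraries held 2 and 4 UMIs in controls against 10 and 48 in the eKO libraries, or 0.39 and 1.3 CPM against 2.7 and 11.1 CPM, and *Ets1* eKO replicate 2 was the only library above the range of immune cells (0.87 to 4.8 CPM). Epicardium held the most *Slit3* of all classes, and in these coronary cells the 8 epicardial markers summed to 0.97 and 2.0 CPM in controls against 5.0 and 8.8 CPM in the eKO libraries, there mostly *Krt19*, with *Upk3b*, *Rspo1*, *Upk1b* and *Krt7* at 0 in both controls. The 6 compact cardiomyocyte markers summed to 54.9 and 67.7 CPM against 117 and 113 CPM, with *Tnnt1* at 33.4 and 30.4 against 88.3 and 82.4 CPM, and the part of either list in the *Slit3* values was not tested. Most of the eKO molecules came from *Ets1* eKO replicate 2, where 18 of 519 cells held one, and with that library left out *Slit3* did not pass the filter on low counts and was not tested. The fitted log2 fold change of 3.29 ± 0.78 did not pass the threshold (edgeR adjusted p = 0.0882), but it did so under 6 of the 10 alternatives that could be fitted, with log2 fold changes of 2.26 to 4.17 over the 10. Without control replicate 1 it was 2.48, without control replicate 2 it was 4.17, and without *Ets1* eKO replicate 1 it was 3.96. These omissions are among the alternatives that passed, but each left 1 library in a group, so the other group alone gave the spread. In the fit of coronary and mural cells together, the difference of their log2 fold changes for *Slit3* was 2.75 (edgeR adjusted p = 0.0624) with all libraries and 1.31 (adjusted p = 0.615) with *Ets1* eKO replicate 2 left out. It was 1.35 (adjusted p = 0.642) without control replicate 1, 3.92 (adjusted p = 4.57e-07) without control replicate 2, and with *Ets1* eKO replicate 1 left out it was 3.45 (adjusted p = 3.13e-09). A fitted fold change at such counts depends on the prior count of the fit.

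In valve endocardium, the endocardium that covers the cushions and valve leaflets, 4 of the 5 members were tested and none was called by edgeR or DESeq2, and none had an unadjusted p under 0.05. Over all 9430 genes tested edgeR called 73 (0.774%) and DESeq2 14 (0.148%), and 1025 had an unadjusted edgeR p under 0.05 (10.9%). *Slit2* was at 364 and 284 CPM in controls against 323 and 366 CPM in the eKO libraries, with overlapping groups (log2 fold change 0.13 ± 0.17, edgeR adjusted p = 0.849). *Robo1* was at 109.8 and 107 CPM in controls against 95.6 and 89.0 CPM in the eKO libraries (log2 fold change −0.19 ± 0.18, edgeR adjusted p = 0.759). The groups did not overlap for *Robo1*, but the difference was about the size of its error. Among the marker lists, that of smooth muscle and pericytes was lower in both eKO libraries (191 and 275 CPM in controls against 156 and 187 CPM). *Robo2* and *Slit3* had at most 20 UMIs in a valve library, and *Robo4* with 2 to 8 UMIs was not tested. In valve cells the mesenchyme list summed to 935 and 895 CPM in controls against 794 and 796 CPM in the eKO libraries. The coronary list was at 230 and 360 against 205 and 189 CPM. *Tcf21*-type markers were higher (93.7 and 87.3 against 120 and 106 CPM), as were the epicardial, immune, mural, endothelial and erythroid lists. The part of these shifts in the values, or in differences from other classes, was not tested.

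Whether an effect differed between the endothelial classes was tested directly, by fitting 2 classes together and asking for an interaction of class and genotype, with a term for each library. Between coronary and mural cells 259 of 12976 genes were called (2.00%), between valve and mural cells 214 of 12582 (1.70%), and between valve and coronary cells 86 of 11484 (0.749%). The members account for 4 calls over these 3 tests of 5 genes.

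For *Robo4* the fall was smaller in coronary endothelium than in mural endocardium, by 1.21 ± 0.22 on the log2 scale (edgeR adjusted p = 0.0053). The coronary level was 3.07 and 3.48 times the mural level within the controls and 9.85 and 6.25 times within *Ets1* eKO. For *Robo2* the 2 classes also differed, by 1.22 ± 0.30 (edgeR adjusted p = 0.0413), but the adjusted p was 0.14 without control replicate 1 and 0.21 without *Ets1* eKO replicate 1, and the levels were low. *Robo1* fell in both classes, and the difference between them was −0.12 ± 0.13 (edgeR adjusted p = 0.786).

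*Slit2* moved differently in the 2 endocardial classes, with a difference of 0.79 ± 0.16 between valve and mural endocardium (edgeR adjusted p = 0.00791). Without control replicate 2 this was 0.55 with an adjusted p of 0.086. The corresponding difference between coronary and mural cells was 0.24 ± 0.13 (edgeR adjusted p = 0.494), so a smaller fall of *Slit2* in coronary endothelium was not shown, and it ranged from 0.049 without *Ets1* eKO replicate 2 to 0.46 without *Ets1* eKO replicate 1 (adjusted p = 0.986 and 0.139). Between valve and coronary cells *Slit2* differed by 0.52 (edgeR adjusted p = 0.270), a value that passed the threshold without control replicate 1 (0.89, adjusted p = 0.00484) and was 0.20 without control replicate 2. *Robo1* differed between valve and coronary cells by 0.81 ± 0.19 (edgeR adjusted p = 0.0365), and each of 3 libraries was needed for this call, with adjusted p values of 0.26 when control replicate 2 was left out, 0.067 when *Ets1* eKO replicate 1 was and 0.053 when replicate 2 of that group was. For *Robo1* in valve against mural cells the difference was 0.73 ± 0.20 (edgeR adjusted p = 0.0735).

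**Figure D3:**
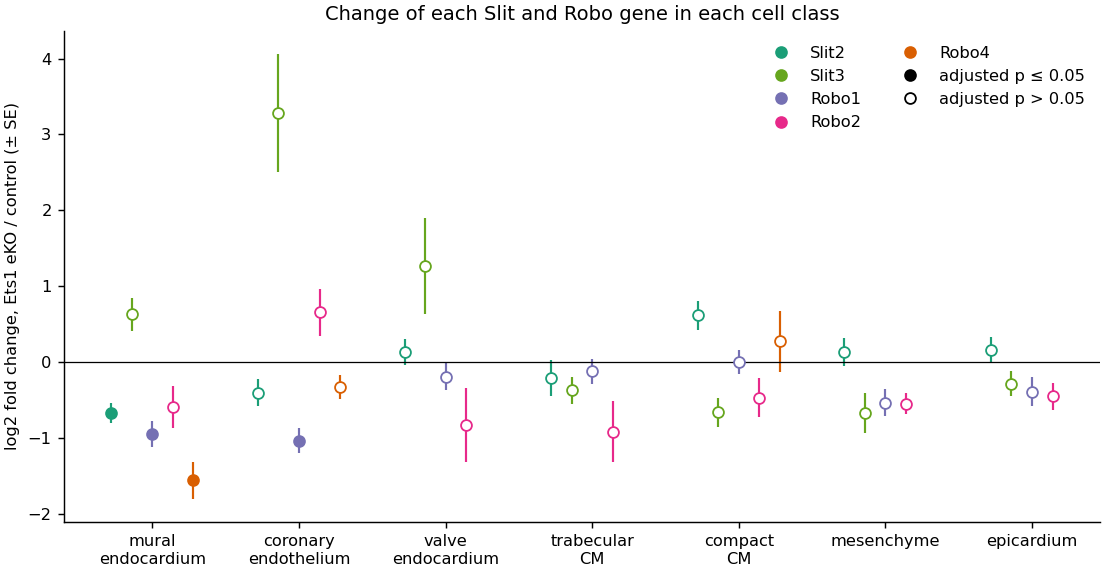
Log2 fold change of each gene in *Ets1* eKO against control (± SE) in 7 cell classes; filled points have an edgeR adjusted p of 0.05 or less, open points do not, and genes with too few UMIs for a test are left out (CM, cardiomyocyte). The filled points are *Slit2*, *Robo1* and *Robo4* in mural endocardium and *Robo1* in coronary endothelium.

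With all 4 libraries, TMM scaling, the low-count filter and no term for sex, edgeR called no member outside the endothelium. In trabecular cardiomyocytes 4 members were tested, 1 of them with an unadjusted p under 0.05 (*Robo2*), and of 12636 genes 7 were called (0.0554%) and 2068 had such a p (16.4%). In compact cardiomyocytes 5 were tested, 2 had such a p (*Slit2* and *Slit3*), and of 13862 genes 1 was called (0.00721%) and 1199 had such a p (8.65%). In mesenchyme 4 were tested, 3 had such a p, and of 14768 genes 3 were called (0.0203%) and 1660 had such a p (11.2%). In epicardium 4 were tested, 2 had such a p, and of 9372 genes 7 were called (0.0747%) and 679 had such a p (7.24%). DESeq2 called 126 genes in mesenchyme (0.853%), *Robo2* among them, and no member in trabecular cells, compact cells or epicardium, where it called 16 (0.127%), 9 (0.0649%) and 0 of all genes.

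These counts moved when 1 library was left out. In such fits its group held 1 library, and the other group alone gave the spread. Without *Ets1* eKO replicate 1 edgeR called 2257 genes in trabecular and 1978 in compact cardiomyocytes, among them *Slit3* in both (log2 fold changes of −0.59 and −0.90, adjusted p = 0.0111 and 0.000894) and *Slit2* in compact cells (0.88, adjusted p = 3.39e-06). Without control replicate 1 it called 423 genes in mesenchyme, *Slit3* among them (−1.05, adjusted p = 0.00224). The other single-library omissions gave 24 to 79 calls in trabecular cells, 19 to 395 in compact cells and 0 to 56 in mesenchyme, and those in epicardium gave 23 to 70, with no member called. Without a filter on low counts *Slit2* passed in compact cells (0.61, adjusted p = 0.0466) and *Slit3* in mesenchyme (−0.69, adjusted p = 0.0280), and with sex as a term *Robo2* passed in mesenchyme (−0.64, adjusted p = 0.0314). Calls over all genes were then 98 in compact cells and 443 in mesenchyme without the filter, and 250 in mesenchyme with sex as a term. With total UMI counts 120 genes were called in trabecular cells, 6 higher and 114 lower, none of them a member.

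In trabecular cardiomyocytes, the class with the highest *Slit2* level in CPM, the gene was at 1207 and 2031 CPM in controls against 1225 and 1342 CPM in the eKO libraries. Control replicate 2 stood above the other 3 libraries, which were close together (log2 fold change −0.21 ± 0.24, edgeR adjusted p = 0.661), and without it the log2 fold change was 0.21. The trabecular list in these cells summed to 11448 and 11630 CPM in controls against 12954 and 16210 CPM in the eKO libraries and the mural list to 314 and 354 against 282 and 251 CPM. The cardiomyocyte (50115 and 48797 against 51081 and 51167 CPM), immune (1.6 and 2.8 against 4.4 and 7.9 CPM) and erythroid lists (129 and 62.9 against 134 and 175 CPM) were also higher in both eKO libraries. The coronary (134 and 126 against 117 and 115 CPM), valve (118 and 123 against 112 and 87.1 CPM) and *Tcf21*-type lists (18.5 and 19.9 against 14.7 and 12.5 CPM) were lower, and the part of these lists in the values was not tested. In compact cardiomyocytes *Slit2* was at 13.4 CPM in both controls and 15.9 and 22.7 CPM in *Ets1* eKO (log2 fold change 0.62 ± 0.19, edgeR adjusted p = 0.553), with −0.19 when clusters replaced gates and 0.32 (adjusted p = 0.395) when *Ets1* eKO replicate 2 was left out. *Slit3* was lower in both eKO libraries in compact cells, at 10.9 and 12.8 CPM in controls against 8.1 and 5.8 CPM in the eKO libraries, but did not pass the threshold (log2 fold change −0.66 ± 0.19, edgeR adjusted p = 0.553). In these cells the smooth muscle and pericyte list (1722 and 1640.0 against 1974 and 2259 CPM), the compact list itself (3797 and 4190 against 4474 and 4422 CPM), the immune list (2.5 and 2.3 against 2.7 and 5.7 CPM) and the erythroid list (128 and 56.4 against 130.3 and 177 CPM) were higher in both eKO libraries. The mural (342 and 382 against 333 and 291 CPM), cushion (18.9 and 25.1 against 14.5 and 15.9 CPM) and mesenchyme lists (20.3 and 27.3 against 19.4 and 19.7 CPM) were lower. The trabecular list, of the class highest in *Slit2*, overlapped between groups, at 238 and 242 CPM in controls against 202 and 339 CPM in the eKO libraries. The part of these lists in the values was not tested. *Robo1* in compact cells was at 88.0 and 119 CPM in controls against 103 and 91.6 CPM in the eKO libraries, and the groups overlapped.

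In mesenchyme, *Robo2* was at 774 and 873 CPM in controls against 520 and 533 CPM in the eKO libraries. Both eKO libraries lay well below both controls, 1.46-fold lower (log2 fold change −0.55 ± 0.14), with an adjusted p of 0.278 by edgeR and 0.0218 by DESeq2. *Robo1* was at 463 and 676 CPM in controls against 368 and 365 CPM in the eKO libraries (log2 fold change −0.53 ± 0.18, edgeR adjusted p = 0.367), again without overlap. *Slit3* was at 104 and 203 CPM against 98.0 and 81.4 CPM, with a wide gap between the controls (log2 fold change −0.67 ± 0.27, edgeR adjusted p = 0.420). Both moved when a control library was left out. Without control replicate 2 *Robo1* was at −0.27 and *Slit3* at −0.15, and without control replicate 1 they were at −0.76 and −1.05. Marker lists also separated the groups in these cells. The 7 smooth muscle and pericyte markers summed to 1150 and 2005 CPM in controls against 876 and 910 CPM in the eKO libraries, the coronary list to 725 and 985 against 524 and 497 CPM, the mural list to 597 and 707 against 565 and 549.8 CPM, the endothelial list to 157 and 130.2 against 111 and 122 CPM and the 4 cushion markers to 578 and 669 against 522 CPM in both. Higher in both eKO libraries were the 4 *Tcf21*-type markers (309 and 242 against 326 and 337 CPM), the compact list (306 and 316 against 338 and 390.0 CPM) and the immune list (4.6 and 5.5 against 7.0 and 10.7 CPM). Their part in these values was not tested. *Slit2* overlapped between groups, at 791 and 596 CPM in controls against 732 and 693 CPM in the eKO libraries.

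The epicardium gave a like picture at lower depth. *Slit3* was at 1064 and 1140 CPM in controls against 943 and 775 CPM in the eKO libraries (log2 fold change −0.28 ± 0.17, edgeR adjusted p = 0.725), *Robo1* had a log2 fold change of −0.39 ± 0.19 (adjusted p = 0.685) and *Robo2* one of −0.45 ± 0.18 (adjusted p = 0.603, edgeR). All 3 were lower in both eKO libraries, and all 3 are genes over 300 kb, which had a median log2 fold change of −0.18 in this class. With 1 library left out the value of *Robo1* ran from −0.63 (without control replicate 1) to −0.11 (without control replicate 2), that of *Slit3* from −0.46 (without *Ets1* eKO replicate 1) to −0.14 (with replicate 2 of that group left out) and that of *Robo2* from −0.59 to −0.30 (without control replicate 1 and 2). In the same class the mesenchyme list summed to 8240 and 7901 CPM in controls against 7049 and 6818 CPM in the eKO libraries, the smooth muscle and pericyte list to 243 and 420.5 against 157 and 209 CPM, the mural list to 3016 and 3105 against 2933 and 2833 CPM, the coronary list to 148 and 156 against 131 and 143 CPM and the epicardial list itself to 3351 and 3698 against 3163 and 3350 CPM, while the cardiomyocyte list (2069 and 1708 against 2140 and 2369 CPM) and the erythroid list (191 and 86.8 against 207 and 239 CPM) were higher. Their part in the 3 values was not tested. *Slit2* overlapped, at 245 and 302 CPM in controls against 278 and 302 CPM in the eKO libraries. Non-overlap of 2 against 2 libraries was common among all genes, from 38.0% in epicardium to 52.8% in mural endocardium, so it carries little weight by itself. In CPM it was more often downward in every class tested. In epicardium 2341 genes were lower and 1223 higher without overlap, in mesenchyme 5006 and 1847, and in mural endocardium 4224 and 2629.

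The cardiomyocytes that fell in neither gate are a remainder that may mix several kinds of cells. Their *Slit2* level was 71.5 and 108.5 CPM in controls against 84.0 and 124 CPM in the eKO libraries, between the compact and the trabecular levels in every library. *Robo1* was higher in this remainder, with 140.1 and 241 CPM in controls against 162 and 146 CPM in the eKO libraries, above both compact and trabecular cells of the same library. Non-cycling trabecular cells (without UMIs of the cell cycle genes *Top2a* and *Mki67*) held more *Slit2* than cycling ones in each library, 1315 and 2165 CPM against 1078 and 1849 CPM in controls and 1460 and 1606 CPM against 959 and 966 CPM in *Ets1* eKO. The split by these genes is a description with no test.

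Mesenchymal cells with *Tcf21*, a marker of fibroblasts that derive from epicardium, and those with *Sox9* and without *Tcf21*, as in cushion mesenchyme, differed in the same way in every library. *Slit2* was 2.64 to 3.56 times higher in *Tcf21* cells and *Slit3* was 1.84 to 4.22 times higher. The receptors went the other way, with *Robo1* in *Tcf21* cells at 0.425 to 0.543 and *Robo2* at 0.625 to 0.896 times the level of *Sox9* cells. In the *Sox9* cells *Robo2* was at 896.5 and 991 CPM in controls against 556 and 674 CPM in the eKO libraries, and *Robo1* at 630 and 813 CPM in controls against 497 and 512 CPM in the eKO libraries. In the *Tcf21* cells *Robo2* was at 671 and 845 CPM in controls against 498 and 421 CPM in the eKO libraries, so the lower *Robo2* was seen in both kinds of mesenchyme.

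**Figure D4:**
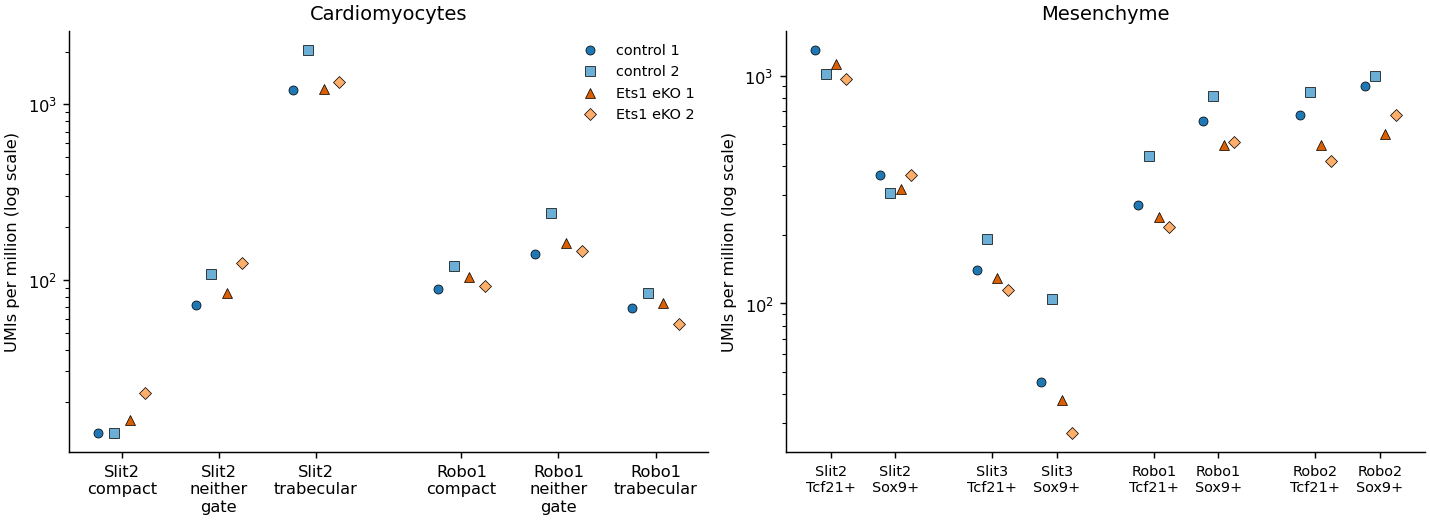
Levels within lineages, in CPM on log axes, with 1 point per library. Left, *Slit2* is lowest in compact and highest in trabecular cardiomyocytes in all 4 libraries, whereas *Robo1* is highest in the cardiomyocytes of neither gate; right, mesenchymal cells with *Tcf21* hold more *Slit2* and *Slit3* and less *Robo1* and *Robo2* than those with *Sox9* and no *Tcf21*.

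The falls of *Robo4* and *Slit2* in mural endocardium were seen in cycling and in non-cycling cells alike. In cells with *Top2a* or *Mki67*, *Robo4* was at 16.9 and 15.9 CPM in controls against 5.0 and 7.1 CPM in the eKO libraries, and *Slit2* at 216 and 217 CPM in controls against 155 and 152 CPM in the eKO libraries. In cells without either gene *Robo4* was at 17.8 and 16.3 CPM against 3.6 and 6.4 CPM, and *Slit2* at 306 and 364 CPM against 200.4 and 197 CPM. The eKO values were below the control values in each case.

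Coronary cells were split by *Gja4* and *Gja5*, connexin genes of arterial endothelium. In cells with a UMI of either, *Slit2* was at 69.6 and 134 CPM in controls against 30.2 and 73.9 CPM in the eKO libraries, and the groups overlapped. In the cells without them *Slit2* was at 81.8 and 79.1 CPM in controls against 66.1 and 68.3 CPM in the eKO libraries. *Robo1* was lower in eKO in both subsets, at 102 and 148 CPM against 68.4 and 55.0 CPM with a connexin UMI, and 164 and 206 CPM against 88.7 and 78.1 CPM without.

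The share of cells with a UMI was compared after each cell was thinned to 2000 UMIs, since the libraries differed in depth. Cells with fewer UMIs were left out, 47 and 22 mural cells in controls against 27 and 105 in the eKO libraries. In mural endocardium 30.0% and 32.8% of control cells and 24.8% and 24.1% of eKO cells held a *Slit2* UMI, with exact 95% binomial intervals of 27.1 to 33.0, 29.3 to 36.4, 22.0 to 27.8 and 22.0 to 26.3%, which cover counting error only. Without thinning these shares were 56.1% and 58.6% in controls against 48.5% and 40.8% in the eKO libraries. For *Robo1* in coronary endothelium the shares were 22.3% and 27.4% in controls against 17.5% and 12.7% in the eKO libraries (66.1%, 68.7%, 44.9% and 34.9% without thinning). For *Robo4* in mural endocardium they were 3.0% and 2.3% in controls against 0.895% and 1.07% in the eKO libraries (12.2%, 12.7%, 3.1% and 3.1% without thinning). In immune cells, with median depths of 3506.5 to 6711.5 UMIs beside 4262.5 to 7359 in mural endocardium, 1.2 to 2.3% of cells held *Slit2*, 0.68 to 1.2% held *Robo1* and none held *Robo4* (0 of 247 cells in the library with the most, which allows a share of up to 1.21%). Each of the endothelial shares given was lower in both eKO libraries, with the smallest two-sided p that an exact permutation of 2 against 2 libraries can give (0.33). *Slit2* shares in coronary endothelium were 13.7% and 15.6% in controls against 8.9% and 11.4% in the eKO libraries, also at an exact permutation p of 0.33.

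Sex of the cells was held constant within the 2 mixed libraries. Among male mural cells *Robo4* was at 14.7 CPM in control replicate 2 and 5.0 CPM in *Ets1* eKO replicate 1, and among female cells at 18.3 and 3.2 CPM. *Slit2* in mural endocardium was at 327 CPM in male and 333 CPM in female control cells and at 214 and 174 CPM in eKO cells. In coronary endothelium *Robo1* was at 224 and 152 CPM in male and female control cells and at 68.6 and 89.3 CPM in eKO cells. The direction of each of these comparisons was the same in male and female cells. With sex as a term in the fit, where parts of 1 library count as separate samples, the log2 fold change was −1.72 for *Robo4*, −1.04 for *Robo1* and −0.68 for *Slit2* in mural endocardium and −1.11 for *Robo1* in coronary endothelium.

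Fold changes of all genes varied with the length of the gene. In mural endocardium the median log2 fold change was 0.16 for the 3198 genes under 10 kb of genomic length and −0.19 for the 414 genes over 300 kb, and in coronary endothelium these were 0.13 and −0.16. The trend was also seen in cells that Tie2Cre does not mark, with −0.32 for genes over 300 kb in trabecular and −0.23 in compact cardiomyocytes. In mesenchyme and epicardium genes of this length had medians of −0.19 and −0.18, with 70.1% and 72.4% of them below 0. *Slit2*, *Slit3*, *Robo1* and *Robo2* are all over 300 kb, whereas *Robo4* is a short gene. The part of gene length in the values was not tested beyond removing the trend. After the trend was removed, *Robo1* kept its call in mural endocardium (log2 fold change −0.77, edgeR adjusted p = 0.0296) and in coronary endothelium (−0.84, adjusted p = 0.0153), and *Robo4* had a log2 fold change of −1.63 in mural endocardium (adjusted p = 0.0085, edgeR). *Slit2* was the call that was lost, as given above.

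**Figure D5:**
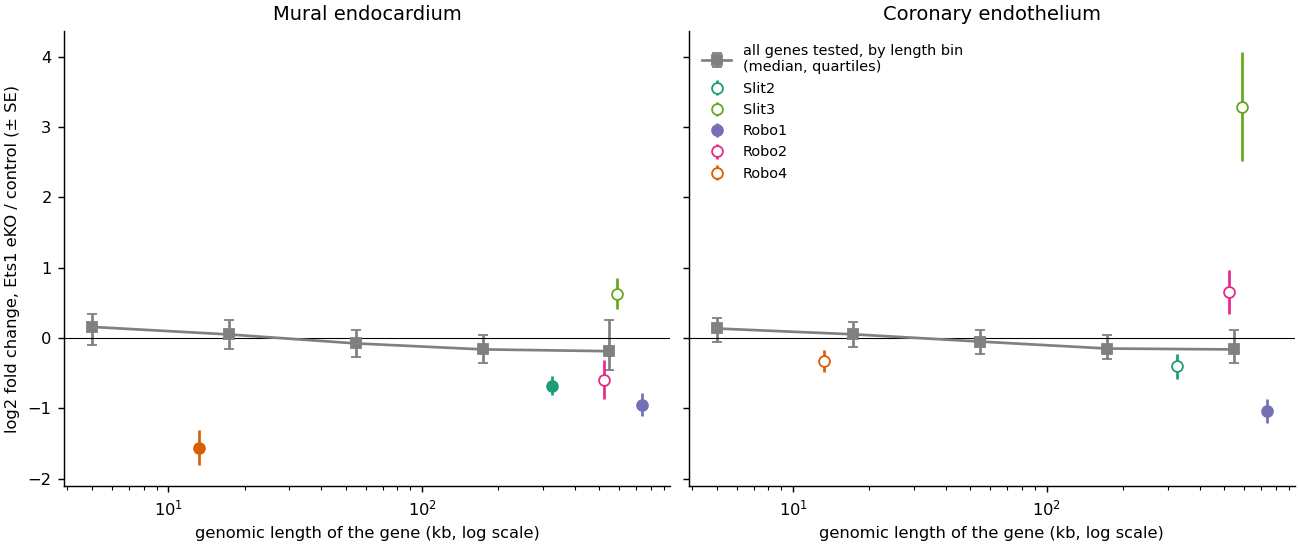
Log2 fold change in *Ets1* eKO against control by genomic length of the gene (kb, log scale) in mural endocardium and coronary endothelium; grey squares, placed near the middle of each length bin, are medians with quartiles over all genes tested, and circles are the 5 genes ± SE, filled where the edgeR adjusted p is 0.05 or less. *Robo4* is the short gene at −1.56 in mural endocardium, where genes of its length bin have a median of 0.05.

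Markers of RNA quality and of other cells also differed between the libraries. Over the 13 mitochondrial transcripts tested in mural endocardium the median log2 fold change was −0.23, and over the 10 cardiomyocyte markers it was 0.49 (all above 0), with a summed level of 1092 and 594 CPM in controls beside 1079 and 1297 CPM in *Ets1* eKO. In coronary endothelium these medians were −0.20 and 0.39. Of the nuclear RNAs, *Malat1* had a log2 fold change of 0.22 and *Neat1* of 0.34 in mural endocardium, *Kcnq1ot1* of 0.08 and *Gm42418* of −0.15, and the values of *Meg3* and the X-linked *Xist* were 1.87 and 1.63. The summed cardiomyocyte level overlapped between the groups in both classes, and its part in the *Slit2* values was not tested. Other marker lists did separate the groups in mural endocardium. The 10 mesenchyme markers summed to 578 and 505 CPM in controls against 873 and 807 CPM in the eKO libraries, with *Col1a2* at 30.7 and 24.4 against 180 and 135 CPM and *Lum* at 10.1 and 7.4 against 61.8 and 53.7 CPM, whereas *Col1a1* was at 6.2 and 3.6 against 4.3 and 3.5 CPM. The 6 coronary markers summed to 538 and 517 CPM against 425 and 425 CPM, of which *Mecom* made up 489 and 479 against 326 and 290.3 CPM while *Fabp4* went the other way, at 32.8 and 26.7 against 82.4 and 120.6 CPM. The 6 mural markers themselves summed to 4985 and 4669 CPM against 4086 and 3686 CPM, and the 10 endothelial markers to 5465 and 5296 CPM against 4836 and 5166 CPM. The 6 trabecular markers, of the class highest in *Slit2*, summed to 1445 and 1349 CPM against 1474 and 1754 CPM. The epicardial (1.7 and 1.1 against 2.3 and 4.0 CPM) and valve lists (230.5 and 245 against 225 and 197 CPM) did not overlap either. The part of these shifts in the values of the 5 genes was not tested.

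Of a list of 43 further counted genes of the pathway, chosen with knowledge of these data, 38 were tested in mural endocardium, where 3.20% of all genes were called. Of these 38, 1 was higher and 2 were lower, the median log2 fold change was −0.10 and that of all genes was 0.00. An unadjusted edgeR p under 0.05 was found for 8 of the 38, beside 21.5% of all genes. *Gpc6*, a glypican that carries heparan sulfate, rose from 106 and 104 CPM in controls to 361 and 264 CPM in *Ets1* eKO (log2 fold change 1.63 ± 0.16, edgeR adjusted p = 0.000449), with both eKO libraries far above the controls. *Ext1*, which builds heparan sulfate chains, fell from 463 and 529.9 CPM to 311 and 289.6 CPM (log2 fold change −0.67 ± 0.14, edgeR adjusted p = 0.0295). *Srgap1*, a GTPase-activating protein that binds the Robo cytoplasmic domain, fell from 259.9 and 294 CPM to 177 and 172 CPM (log2 fold change −0.61 ± 0.13, edgeR adjusted p = 0.0328). For the pathway genes named here and below, values with a library left out or with the gene length trend removed are not given.

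In coronary endothelium 35 were tested and 1 was called, where 0.763% of all genes were. *Sdc4*, a syndecan that carries heparan sulfate, rose from 9.7 and 8.5 CPM in controls to 19.9 and 18.8 CPM in *Ets1* eKO (log2 fold change 1.15 ± 0.22, edgeR adjusted p = 0.0351), from 50, 26, 75 and 81 UMIs. The median of the list was −0.12 beside 0.01 for all genes. An unadjusted edgeR p under 0.05 was found for 6 of the 35, beside 11.7% of all genes. DESeq2 called 3 genes of the list in mural endocardium (3.12% of all genes there) and 0 in coronary endothelium (0.603%). In valve endocardium 34 of the list were tested and 0 were called by edgeR or DESeq2, with 1 gene at an unadjusted p under 0.05 (10.9% of all genes). In the other classes edgeR called 0 of the list. At such a p were 7 of 41 genes in trabecular cardiomyocytes (16.4% of all genes), 9 of 40 in compact cardiomyocytes (8.65%), 4 of 41 in mesenchyme (11.2%) and 3 of 38 in epicardium (7.24%). In the same order DESeq2 called 0, 1 (*Dcc*), 1 (*Srgap3*) and 0, beside 0.127%, 0.0649%, 0.853% and 0% of all genes.

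*Slit1* and *Robo3*, the remaining members of the families, had few UMIs. *Slit1* had at most 5 UMIs in any library outside immune cells, where 6 to 9 UMIs were counted per library, or 9.2 and 14.4 CPM in controls against 4.9 and 6.9 CPM in the eKO libraries, above its level in every other class (at most 1.2 CPM). *Robo3* had 10 to 20 UMIs per library in trabecular cardiomyocytes and at most 3 in any other class. Neither gene was tested in the endothelial classes.

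The genes most like each member were sought over the 32 class by library sums, by Pearson correlation of log2(CPM + 1) among 11974 other genes with a mean of at least 10 CPM in some class. These points share libraries and depth, and the correlations are given without a test. *Robo4* was most like *Ushbp1* (r = 0.96), *Gm14207* (0.96) and *Pcdh12* (0.95), the last a protocadherin of endothelial cells, and *Robo2* was most like *Vwc2* (0.96), *Naalad2* (0.96) and *Clip3* (0.96). *Robo1* had *Myh10* (0.92), *Lzts2* (0.91) and *Plod2* (0.91), *Slit3* had *Capn6* (0.93), *Vasn* (0.93) and *Pbx4* (0.92), and *Slit2* had *Marveld1* (0.84), *Cdo1* (0.84) and *Sardh* (0.83), the lowest values of the 5. Among the members themselves *Robo1* and *Robo2* were the pair most alike (0.67) and *Slit3* and *Robo4* the least (−0.46).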

How the data were processed

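Single cells of E14.5 mouse ventricles (2 control and 2 *Ets1* eKO libraries) were measured by droplet RNA sequencing with 3′ chemistry. The deposited matrices hold whole-number UMI counts per gene and cell, which the authors made with Cell Ranger 7.1.0 on mm10. That version counts intronic reads by default, and whether this was changed is not given in the sources used here. The members and lists were chosen with earlier results of these data known.

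Barcodes needed between 200 and 7000 genes, no more than 20% of counts from mitochondrial genes, 35% from ribosomal protein genes and 2% from hemoglobin genes. The barcodes with the highest Scrublet doublet scores (scanpy 1.11.5) were removed at 0.8% per 1000 cells. Cells were gated on marker genes, and counts were summed per library and class. Tests used edgeR 4.0.16 (quasi-likelihood, TMM, low-count filter) over all genes with Benjamini-Hochberg adjustment and a threshold of 0.05, run in R 4.3.3. Alternatives were DESeq2 1.42.0, total UMI counts, no filter, a replicate block, each library left out, other doublet, cell and gate settings, clusters, removal of the gene length trend and, added after seeing the data, sex of the cells as a term. Every fit with 1 library left out held 1 library in that group, so the spread came from the other group alone. On simulated counts for mural endocardium (12871 genes), edgeR recovered 24 of 100 genes changed 1.5-fold and 67 of 100 changed 2-fold, with 7 false among 98 calls. For coronary endothelium (11235 genes) it recovered 26 and 74 of 100, with 4 false among 104 calls.

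Genes named are the 5 members, *Ets1*, pathway genes past the threshold in an endothelial class, the 3 genes most like each member, fixed RNA quality genes and gate markers. *Dcc* and *Srgap3* (DESeq2 calls), *Slit1*, *Robo3* and overlapping genes are named outside this rule, after their values were seen. Gene lengths came from GENCODE M21 (99.6% of gene IDs matched) and promoters from RefSeq.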

Additional observations from a re-analysis of the deposited data

Results flagged for a closer look

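The effect of *Ets1* eKO differed between endothelial classes for 4 member and class pairs, each by the edgeR test of the difference itself with library as a term. *Robo4* fell less in coronary endothelium than in mural endocardium, by 1.21 on the log2 scale (adjusted p = 0.0053). The coronary level exceeded the mural one 3.07 and 3.48 times in controls and 9.85 and 6.25 times in *Ets1* eKO. *Robo2* differed between the same classes by 1.22 (adjusted p = 0.0413), from 22 to 79 UMIs per library and class. This adjusted p was 0.14 without control replicate 1 and 0.21 when *Ets1* eKO replicate 1 was left out, and both fold changes behind it turned, to 0.24 in mural cells with sex as a term and to −0.12 in coronary cells with doublets kept. *Slit2* differed between valve and mural endocardium by 0.79 (adjusted p = 0.00791), or 0.086 as adjusted p without control replicate 2. *Robo1* differed between valve endocardium and coronary endothelium by 0.81 (adjusted p = 0.0365), with adjusted p values of 0.26, 0.067 and 0.053 when control replicate 2, *Ets1* eKO replicate 1 or *Ets1* eKO replicate 2 was left out.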

How the results depend on the processing

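Without a filter on low counts *Slit3* passed in mural (log2 fold change 0.64) and coronary cells (3.28), and calls over all genes were 1261 in mural, 334 in coronary and 203 in valve cells. Same-numbered libraries did not deviate together (r of −0.09 to 0.04), so the numbers were not taken as pairs. With a replicate block *Slit3* passed in mural (0.68) and coronary cells (3.02), and calls were 1034, 257 and 171. With the length trend removed *Slit2* in mural cells was −0.50 (adjusted p = 0.065), *Robo1* in valve cells 0.032, *Slit2* and *Robo1* in trabecular cells 0.094 and 0.22, and valve calls 38. With sex as a term *Slit2* in coronary cells was −0.71, *Slit3* in mural cells 1.11, *Robo2* in mural cells 0.24, *Slit2* in epicardium −0.17, *Robo1* in compact cells −0.062, and calls were 702 in mural and 17 in valve cells. Without doublet removal *Robo2* was −0.12 in coronary and 0.13 in valve cells, *Robo1* in compact cells −0.049, and calls were 50 in coronary and 44 in valve cells. With clusters *Slit3* in coronary cells was 3.49, *Slit2* in compact cells −0.19 and coronary calls 147. Valve calls were 14 with DESeq2, 35 with the stricter cell filter and 10 with the stricter gate. *Robo1* in compact cells was −0.087 with total UMI counts and −0.0034 without the filter.

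When each library was left out in turn, *Slit2* ranged from −0.79 to −0.54 in mural, −0.62 to −0.21 in coronary, −0.044 to 0.32 in valve and −0.54 to 0.21 in trabecular cells and from −0.089 to 0.39 in mesenchyme. *Slit3* ranged from 0.30 to 1.12 in mural cells and, over the 3 omissions that could be fitted, from 2.48 to 4.17 in coronary cells (without *Ets1* eKO replicate 2 it fell under the low-count filter), and *Robo1* from −1.13 to −0.74 in mural, −1.22 to −0.83 in coronary, −0.26 to 0.030 in trabecular and −0.20 to 0.23 in compact cells. *Robo2* ranged from 0.22 to 1.09 in coronary cells and *Robo4* from −0.016 to 0.59 in compact cells. Calls ranged from 275 to 1234 in mural, 142 to 1030 in coronary and 85 to 251 in valve cells. Differences between valve and mural cells ranged from 0.55 to 1.099 for *Slit2*, −0.71 to 2.58 for *Slit3* and −0.68 to 0.11 for *Robo2*. Those between valve and coronary cells ranged from 0.20 to 0.89 for *Slit2*, 0.60 to 1.04 for *Robo1* and −0.39 to 1.34 for *Robo4*, and those between coronary and mural cells from 1.31 to 3.92 for *Slit3* and 1.09 to 1.39 for *Robo2*.

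Fits on male cells alone were not run, since *Ets1* eKO replicate 2 held 17 male cells. The cause of these shifts was not tested. With 2 libraries per group and few UMIs for *Slit3* in coronary and *Robo4* in valve cells, depth limits what could be called.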
